A study of Mus musculus with 12 samples.

Results

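Ribosomal protein pseudogenes were examined in RNA-seq libraries of the E15.5 mouse ovary after dexamethasone (dex) treatment. They were taken as the genes whose symbol is that of a ribosomal protein gene followed by -ps, in most cases with a number, with at least 10 counts summed over the 12 libraries. Of the 54532 genes in the count table, 298 carried such a name, 95 of these were at 0 in every library, 162 were below the minimum, and 136 were kept. They were thus chosen by their summed level, and the levels below describe these 136 pseudogenes without a test. At the limit, 4 kept genes (Rpl21-ps7, Rpl9-ps8, Rps15-ps2 and Rps27-ps1) had exactly 10 counts and 3 excluded genes (Rpl21-ps8, Rpl30-ps3 and Rpl32-ps) had exactly 9. Of the 136, 126 were annotated as processed pseudogenes, 5 as transcribed processed pseudogenes and 5 as protein coding.

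Dex is a synthetic agonist of the glucocorticoid receptor. It was injected into the peritoneum of the pregnant mothers each day between E12.5 and E15.5, at 10 µg per g, and the control mothers got saline. All embryos carried the Tg(Pou5f1-EGFP)2Mnn reporter, which is driven by Pou5f1 (OCT4) regulatory sequence and marks germ cells. E15.5 ovaries were sorted into GFP+ germ cells and GFP- cells, and the latter fraction (soma) held every other cell type of the ovary. The 4 groups were germ cells after saline, germ cells after dex, soma after saline and soma after dex, with 3 libraries each. Each library was made from sorted cells of ovaries pooled over several litters, so the replicates are pools and not single animals.

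Ribosomal protein genes encode the structural proteins of the large (Rpl) and small (Rps) ribosomal subunits and are among the most strongly transcribed genes of growing cells. Processed pseudogenes arise when an mRNA is reverse transcribed and inserted elsewhere in the genome, so they lack introns and the parent's promoter. The short and abundant ribosomal protein mRNAs have left unusually many such copies in mammalian genomes. A recent copy can differ from the parent mRNA at only a few bases, and a short read from such a stretch fits both places.

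The pairs below show how close the pseudogenes with the most counts were to their parents, with the differing bases in capitals. Each line is a stretch of the coding sequence from GENCODE M21 transcripts (GRCm38), the pseudogene first and the parent second, and positions count from 1 at the A of the parent's start codon. Rpl34-ps1 (chr6:71124610-71124759, plus strand, positions 1 to 150) and Rpl34, a large subunit protein gene, are shown because this pseudogene had the most counts, and they differed here by T132C alone.
Rpl34-ps1: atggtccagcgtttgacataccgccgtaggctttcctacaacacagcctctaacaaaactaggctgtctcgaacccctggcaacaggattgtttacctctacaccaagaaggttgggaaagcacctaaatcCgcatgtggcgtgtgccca
Rpl34: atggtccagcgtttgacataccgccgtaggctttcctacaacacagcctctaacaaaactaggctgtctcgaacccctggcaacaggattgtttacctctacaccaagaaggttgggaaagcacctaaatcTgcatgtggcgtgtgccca
Rps24-ps3 (chrX:79195292-79195441, plus strand, positions 246 to 395) was second and carried G273C, G360T and C380T relative to Rps24, a small subunit protein gene.
Rps24-ps3: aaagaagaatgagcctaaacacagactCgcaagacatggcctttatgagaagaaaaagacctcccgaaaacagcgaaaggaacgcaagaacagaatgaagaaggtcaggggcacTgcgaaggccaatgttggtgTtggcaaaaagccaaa
Rps24: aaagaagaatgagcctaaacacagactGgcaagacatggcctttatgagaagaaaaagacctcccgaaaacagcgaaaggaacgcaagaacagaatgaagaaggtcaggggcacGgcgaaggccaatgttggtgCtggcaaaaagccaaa
Rps19-ps6 (chr12:110898369-110898518, plus strand, positions 256 to 405) carried T273C, G369A, G372A and C390T relative to Rps19, a small subunit protein gene mutated in Diamond-Blackfan anaemia.
Rps19-ps6: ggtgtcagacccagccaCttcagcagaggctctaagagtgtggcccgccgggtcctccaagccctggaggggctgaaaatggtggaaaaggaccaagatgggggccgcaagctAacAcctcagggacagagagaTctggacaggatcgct
Rps19: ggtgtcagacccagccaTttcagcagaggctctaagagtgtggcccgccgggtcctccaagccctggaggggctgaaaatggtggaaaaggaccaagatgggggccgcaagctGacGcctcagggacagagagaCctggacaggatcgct
Rpsa-ps10 (chr3:150073191-150073340, minus strand, positions 203 to 352) carried T210C, C219T and C345G relative to Rpsa, the small subunit protein also known as the laminin receptor precursor.
Rpsa-ps10: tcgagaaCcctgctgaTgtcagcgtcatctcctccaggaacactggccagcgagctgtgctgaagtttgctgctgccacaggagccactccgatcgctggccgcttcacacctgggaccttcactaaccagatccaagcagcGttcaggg
Rpsa: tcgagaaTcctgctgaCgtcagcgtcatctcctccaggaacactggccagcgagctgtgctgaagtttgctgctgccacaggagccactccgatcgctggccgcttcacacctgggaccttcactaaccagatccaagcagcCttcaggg
Rpl38-ps2 (chr6:140747023-140747172, minus strand, positions 1 to 150) represents the copies with no difference, and its sequence is also that of the large subunit gene Rpl38.
Rpl38-ps2 and Rpl38: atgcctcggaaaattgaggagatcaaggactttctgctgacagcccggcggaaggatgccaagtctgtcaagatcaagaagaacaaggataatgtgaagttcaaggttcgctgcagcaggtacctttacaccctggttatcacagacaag
The last pair is shown for contrast: Rpl7a-ps9 (chr7:81445959-81446108, plus strand, positions 40 to 189) differed from Rpl7a, a large subunit protein gene, at 23 bases of this stretch.
Rpl7a-ps9: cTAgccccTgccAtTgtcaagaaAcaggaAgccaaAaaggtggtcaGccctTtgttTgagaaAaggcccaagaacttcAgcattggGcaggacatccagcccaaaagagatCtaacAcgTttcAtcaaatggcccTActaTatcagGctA
Rpl7a: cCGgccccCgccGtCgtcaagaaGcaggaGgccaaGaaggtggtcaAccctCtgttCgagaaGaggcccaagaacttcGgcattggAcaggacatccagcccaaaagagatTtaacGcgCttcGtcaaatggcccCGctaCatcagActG

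Over all 136 pseudogenes, 132 aligned to the mRNA of the parent, and 51 of these were at least 99% identical to it. The median identity was 98.7% (range 79.4% to 100%), the median number of differences (mismatches and gaps) was 7 (0 to 82), and 74 kept the parent's whole reading frame. There were 53 parents. Rpl31 had the most kept pseudogenes, 9, and Rpsa, Rpl17, Rps19 and Rps2 had 6 each. The pseudogenes lay on 20 chromosomes, with 10 on X. The span of 58 of them overlapped another gene, and 5 overlapped an exon. Of the 135 long enough, 14 held no stretch of 100 bases that was absent from the transcripts of every other gene, and 23 consisted only of such stretches. Parents shared much of their sequence too: over 52 parents, a median of 58.9% of the 100-base stretches (range 8.89% to 100%) occurred in no other gene's transcripts. How reads that fit several places were counted is not given in the sources used here, so every level below is the level assigned to that gene in the count table. For the close copies, transcription of the pseudogene and reads of the parent or of another copy cannot be told apart.

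The libraries held 14658503 to 18245507 counts, and 3 counts, taken as the floor of detection, corresponded to 0.169 to 0.201 CPM (counts scaled to the library total with TMM factors). Germ cell markers (Pou5f1, Dazl, Ddx4, Dppa3, Sycp3, Stra8 and Mael) summed to 2459 to 2981 CPM in the germ libraries and 2.89 to 20.6 CPM in the soma, and all 9 somatic markers together reached 105 to 224 and 13295 to 16705 CPM, respectively. The soma also held erythroid cells (4 markers, 2148 to 10841 CPM), macrophages and endothelium (224 to 277 CPM). Between the treatments, the 4 macrophage markers summed to 83.8 to 104 CPM in saline soma and 23.1 to 52.6 CPM in dex soma, and the 7 germ cell markers to 2.89 to 6.06 and 15.3 to 20.6 CPM, in both cases without overlap. The third dex soma library stood apart. Its counts differed from those of the other dex soma libraries with a chi-square per gene of 16.3 and 21.8, against at most 10.2 for any other replicate pair. It had 16764439 counts and 24120 detected genes, both inside the range of the soma libraries, and the lowest erythroid sum (2148 CPM) and mitochondrial share (1.80% of counts) of the 6 soma libraries. Comparisons that use it are given with and without it where their direction or calls changed.

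A few pseudogenes held most of the counts. Of 124424 counts assigned to the 136 pseudogenes, 26.0% belonged to Rpl34-ps1, 50.7% to the 3 highest and 76.6% to the 9 highest. The median pseudogene had 69.5 counts in all 12 libraries together, a mean level of 0.353 CPM, and 36 of 136 reached a mean of 1 CPM. Counts were found in every library for 67. Together they took up 0.0566% ± 0.00687 of all counts in saline germ cells, 0.0516% ± 0.00381 in dex germ cells, 0.0663% ± 0.0104 in saline soma and 0.0776% ± 0.0221 in dex soma (SD, n = 3). The dex soma value spanned 0.0587% to 0.102%, with the highest share in the third library. The dex germ libraries lay below both soma groups, and the other groups overlapped. Per 100 counts of the parents there were 2.04 ± 0.417, 1.91 ± 0.0468, 2.09 ± 0.326 and 2.18 ± 0.554 counts of pseudogenes in the same order (SD, n = 3). The groups differed by less than the spread between libraries in this ratio.

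Rpl34-ps1 (chr6:71124610-71124963) was the most abundant pseudogene on a per-length scale as well, with a mean level of 462 CPM per kb. It was at 150, 177 and 179 CPM in the saline germ libraries, 127, 115 and 141 CPM after dex, 198, 178 and 128 CPM in saline soma and 175, 197 and 201 CPM in dex soma. The dex germ libraries lay below all others except the third saline soma library. Per kb, its level was 840% to 1224% of that of its parent in each of the 12 libraries. Only 4 of its 255 stretches of 100 bases were absent from other genes, and 46.3% occurred in the parent, so most of the remainder matched further copies.

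Rps24-ps3 (chrX:79195047-79195448) was second, at 206 CPM per kb. Its levels were 97.4, 91.0 and 90.0 CPM in the saline germ libraries, 75.6, 78.7 and 80.7 CPM in dex germ cells, 88.3, 67.6 and 64.2 CPM in saline soma and 74.7, 82.6 and 101 CPM in dex soma. The dex germ libraries were below the saline germ libraries without overlap, whereas the soma groups overlapped. Per kb it stood at 122% to 187% of Rps24. Rpl3-ps1 (chrX:13202571-13203780), a copy of the gene for a large subunit protein near the peptidyl transferase centre with 2 differences over 1210 bases, was at 60.4 CPM per kb on average. Its levels ran from 42.5 to 60.9 CPM in saline germ cells, 51.8 to 67.9 in dex germ cells, 60.6 to 93.1 in saline soma and 82.0 to 124 in dex soma. It was the steadiest of the 10 most counted pseudogenes together with Rpl34-ps1, Rps24-ps3 and Rpl19-ps11 (chr8:19492936-19493526), which had a single difference from Rpl19 (G191A), since none of these 4 varied by 2-fold or more between libraries of 1 group.

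**Figure D1:**
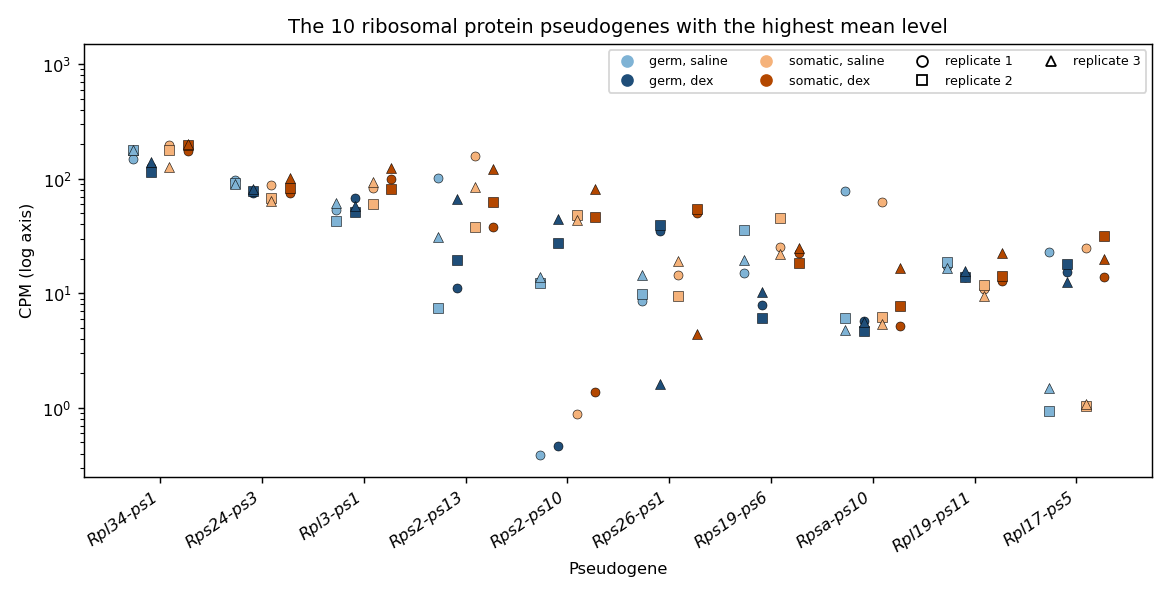
Levels of the 10 ribosomal protein pseudogenes with the highest mean CPM, on a log axis, with 1 point per library, shaped by replicate number (n = 3 per group). Rpl34-ps1 and Rps24-ps3 stay within a narrow band, while Rps2-ps13, Rps2-ps10, Rps26-ps1, Rpsa-ps10 and Rpl17-ps5 spread widely within their groups.

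Most pseudogenes were far below their parents. Per kb of the length in the count table, which for a parent is the union of its exons, the median pseudogene stood at 0.228% of its parent (range 0.0135% to 1040%). Only 3 of 136 were at or above it: Rpl34-ps1 (1040%), Rps10-ps2 (333%) and Rps24-ps3 (142%). Rps19-ps6 (52.4%) and Rps10-ps1 (37.7%) followed, 8 reached 10%, and 44 were below 0.1%. Rps10-ps2 (chr16:20822145-20822640) had a low parent count: it was at 3.71 to 5.54 CPM in saline germ cells, 5.07 to 5.96 in dex germ cells, 3.77 to 5.70 in saline soma, and 3.93, 5.13 and 12.1 in dex soma, against 4.26 to 13.8 CPM for Rps10 itself. The third dex soma library lay above all 11 others. Rps10-ps1 (chr3:95622278-95622772) was much lower, at 0 to 1.30 CPM. The level of the parent said little about that of its pseudogenes (Spearman's rho 0.113 across 136 pseudogenes, a description, since pseudogenes of 1 parent share it).

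Pseudogenes with at most 5 differences from their parents carried most of the counts. The 12 copies without any difference stood at a median of 2.98% of the parent per kb, those with 1 to 5 differences (47) at 1.01%, those with 6 to 20 (48) at 0.115%, and those with over 20 (25) at 0.0981%. A mean of 1 CPM was reached by 9 of 12, 20 of 47, 6 of 48 and 1 of 25 in these classes, and the classes held 9.55%, 69.9%, 19.4% and 0.928% of the pseudogene counts. Across 132 pseudogenes the rank correlation of differences with mean CPM was -0.545, and that of the share of unique 100-base stretches with mean CPM was -0.609 across 135 (descriptions, over genes that share libraries and parents). Sharing of reads with the parent, the age of a copy and its own transcription were not separated here. The 12 copies without a difference were Rpl10-ps3, Rpl10a-ps1, Rpl15-ps3, Rpl27-ps3, Rpl28-ps1, Rpl31-ps8, Rpl36a-ps2, Rpl38-ps2, Rps6-ps4, Rps12-ps3, Rps13-ps2 and Rps16-ps2.

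**Figure D2:**
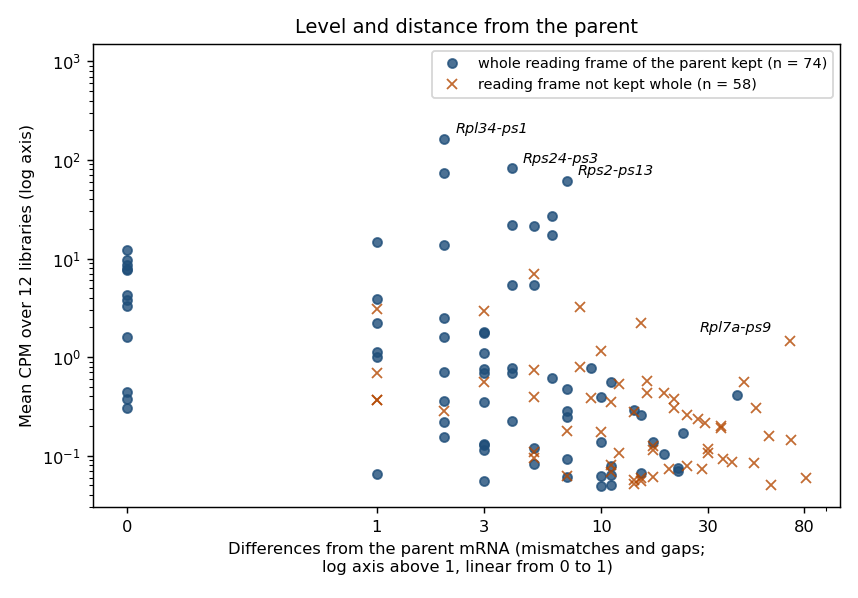
Mean CPM over the 12 libraries (log axis) against the number of differences from the parent mRNA, with 1 point for each of the 132 aligned pseudogenes. The highest levels lie between 1 and 7 differences, and beyond 20 only Rpl7a-ps9 reaches 1 CPM.

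The differences in the most counted pseudogenes rarely altered a codon's meaning. In the 10 with the highest mean CPM, 33 of 36 coding differences (91.7%) kept the parent's amino acid, all 10 retained the full reading frame, and 7 had no difference that changed an amino acid. In the other 122 aligned pseudogenes, 640 of 1487 (43.0%) kept it. Among the 48 of these with 1 to 7 coding differences, a range like that of the top 10, the share was 50.6% (86 of 170). The T132C of Rpl34-ps1 and all differences of Rps19-ps6 in the stretch shown fell in this class, whereas the G191A of Rpl19-ps11 and the C380T of Rps24-ps3 changed the amino acid. These are counts over genes chosen for their level and carry no test.

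Several pseudogenes varied more between replicates of 1 group than between groups, and did so together in both sorted fractions. Rpsa-ps10 (chr3:150072658-150073542) was at 78.3 CPM in the first saline germ library and 62.2 CPM in the first saline soma library, and at 4.72 to 7.77 CPM in 9 of the other 10 libraries, with 16.8 CPM in the third dex soma library. Rpl17-ps5 (chr5:22612628-22613182), a copy of the large subunit gene Rpl17, was at 22.8 and 24.7 CPM in the first saline germ and soma libraries, at 0.93 to 1.49 CPM in the other 4 saline libraries, and at 12.6 to 31.7 CPM in the 6 dex libraries. Both genes were thus high in the same numbered libraries of germ cells and soma.

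Rps26-ps1 (chr8:107439131-107439579), which lies within Wwp2 on the opposite strand and copies a small subunit gene, showed the same kind of split among the dex libraries. It was at 35.1 and 39.3 CPM in the first and second dex germ libraries and at 50.4 and 54.7 CPM in the matching soma libraries, but at 1.63 and 4.46 CPM in the third of each. The saline libraries lay between 8.59 and 19.0 CPM, inside the range of the dex libraries. Rps2-ps10 was at 0.39, 0.88, 0.47 and 1.39 CPM in the first library of each of the 4 groups, and at 12.4 to 81.9 CPM in the 8 others. Rps2-ps13 (chrX:52898588-52899469) ran from 7.40 to 101 CPM in germ cells and from 37.9 to 158 CPM in soma. Rps2, the parent of both, encodes a small subunit protein at the mRNA entry site.

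Such joint variation was counted over genes whose mean reached 1 CPM in germ cells and in soma. Among saline libraries, 4 of 29 pseudogenes (13.8%) differed by 4-fold or more between the highest and lowest library in both cell types (Rps2-ps13, Rps2-ps10, Rpsa-ps10 and Rpl17-ps5), against 15 of 12819 genes (0.117%). For 3 of the 4, all but Rps2-ps10, the highest and the lowest libraries had the same numbers in germ cells and soma, as in 12 of the 15 genes. Among dex libraries, 2 of 29 pseudogenes did so (6.90%, Rps2-ps10 and Rps26-ps1), against 12 genes (0.0936%), and both matched in number. The ratio of highest to lowest was 24.5 in germ cells and 23.9 in soma for Rpl17-ps5 in saline, and 94.8 and 58.9 for Rps2-ps10 in dex. None of the 53 parents met this criterion under either treatment. A germ and a soma library that share a treatment and a number may come from the same pool of ovaries, which the labels do not state, and sequence differences between pools were not tested.

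**Figure D3:**
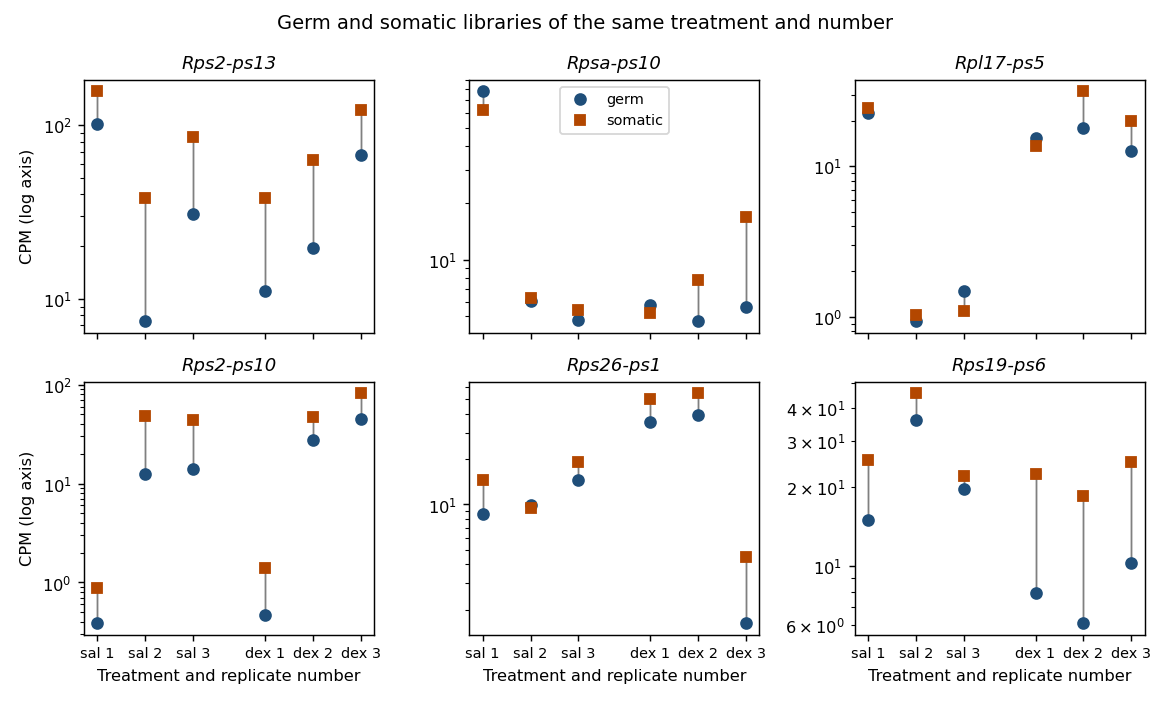
CPM (log axis) of 6 pseudogenes in each library, with the germ (circle) and soma (square) libraries of the same treatment and number joined by a line. Both members of a joined pair are high or low together in Rpsa-ps10, Rpl17-ps5, Rps2-ps10 and Rps26-ps1, whose levels split the libraries within a treatment.

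The third dex soma library held the highest level of 28 of the 36 pseudogenes with a mean of at least 1 CPM (77.8%), against 9.38% of 16147 genes at that level. The same library was highest for 18 of 53 parents and for 8 of 58 other genes named -ps. Relative to the mean of the other dex soma libraries, its level was 2.48-fold at the median of 35 pseudogenes (range 0.0848 to 3.64), and 26 of them (74.3%) were at least 1.5-fold higher, against 6.57% of 15876 genes. Parents were at 1.02-fold at the median, with 1 of 53 reaching 1.5-fold, and other -ps genes at 1.16-fold with 14 of 47. In the third dex germ library the pseudogenes were at 0.986-fold.

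The excess was not limited to copies identical to their parents. Its median was 2.59-fold for 9 copies without a difference, 2.24-fold for 20 with 1 to 5 differences and 2.50-fold for 6 with 6 or more, of which 4 reached 1.5-fold. None of the 35 consisted only of stretches absent from other genes. The median was 2.47-fold for 16 inside another gene's span against 2.59-fold for 19 outside. Rpl10a-ps1 (chr1:64993951-64994604), identical to its parent, was at 28.2 CPM in that library and at 7.37 and 8.62 CPM in the other dex soma libraries. Rpl31-ps8 was at 25.2 CPM against 8.76 and 12.1 CPM, and Rps6-ps4 at 19.9 CPM against 6.40 and 9.52 CPM. Rps26-ps1 was the reverse case, at 0.0848-fold. The part of this library's preparation in the excess was not tested.

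The first treatment question was whether dex changed the pseudogenes in germ cells. Of the 136, 44 passed the low-count filter and 0 were called by edgeR's quasi-likelihood test (BH-adjusted p-value ≤ 0.05), against a background of 0.208% of 16857 genes. At an unadjusted p under 0.05 there were 8 (2 higher and 6 lower, against 11.6% of all genes), and DESeq2 called 2, Rpl34-ps1 and Rps19-ps6. The median log2 fold change was 0.15, against 0.01 for all genes. Among the 53 parents, 2 were lower and none was higher, and among 79 cytosolic ribosomal protein genes 5 were lower.

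Rps19-ps6 (chr12:110898114-110898551), inside Tecpr2 on the same strand, came closest. It was at 15.05, 36.1 and 19.7 CPM in saline germ cells and at 7.90, 6.07 and 10.3 CPM after dex, groups that did not overlap, with a log2 fold change of -1.54 (SE 0.29, edgeR adjusted p = 0.0695). All 3 dex libraries lay on one side of all 3 saline libraries in 10 pseudogenes (6 below and 4 above), and in 17.4% of all genes. Tecpr2, the host gene, averaged 108 ± 12.2 CPM in the saline germ libraries and 122 ± 5.89 CPM in the dex germ libraries (SD, n = 3), and Rps19, the parent, had a log2 fold change of -0.09 (SE 0.08, edgeR adjusted p = 0.715). Rpl34-ps1 had a log2 fold change of -0.40 (SE 0.09, edgeR adjusted p = 0.127), and Rpl34 one of -0.13 (SE 0.10).

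In the soma 48 pseudogenes passed the filter and 0 were called by edgeR, against 8.18% of 16556 genes. At an unadjusted p under 0.05 there were 11 (10 higher and 1 lower, 22.9%, against 20.9% of all genes), and DESeq2 called 1, Rpl19-ps11. Positive log2 fold changes were found for 40 of 48, with a median of 0.57 against 0.000142 for all genes. This shift rested on the third dex soma library. Without it, 24 of 49 were positive, the median was -0.01, and 1 pseudogene was called (Rps26-ps1), against 11.1% of all genes. Only 3 pseudogenes had all dex soma libraries on one side of the saline soma libraries, each time above, against 25.4% of all genes.

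Rpl19-ps11 was among those 3. It was at 10.8, 11.8 and 9.40 CPM in saline soma and at 12.9, 14.2 and 22.7 CPM in dex soma, a log2 fold change of 0.63 (SE 0.20, edgeR adjusted p = 0.0725). In germ cells it was at 17.2, 18.8 and 16.8 CPM after saline and at 13.9, 13.8 and 15.6 CPM after dex. Its parent Rpl19 had log2 fold changes of 0.20 (SE 0.06) in soma and -0.12 (SE 0.08) in germ cells. Among the parents, which have far more counts, 15 of 53 were higher in dex soma and none lower, with a median log2 fold change of 0.18, and 21 of 79 ribosomal protein genes were higher. The count of parents was 15 of 53 without the third dex soma library too, with a median of 0.17. The macrophage and germ cell marker sums given above also differed between the soma groups, and their part in these differences was not tested.

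The dex effects in the 2 cell types were then compared with an interaction term in a fit of all 12 libraries. Of 55 pseudogenes tested, 0 were called by edgeR, against 1.62% of 19390 genes, 6 had an unadjusted p under 0.05 (all lower in germ cells, 10.9% against 15.4%), and DESeq2 called 2, Rpl19-ps11 and Rpl34-ps1. The lowest adjusted p was that of Rpl19-ps11, with a difference of -0.93 on the log2 scale (SE 0.26, edgeR adjusted p = 0.0924). Negative differences were found for 43 of 55, with a median of -0.44. Without the third dex soma library they were 35 of 63, with a median of -0.08. Of the 53 parents, 8 were lower and none higher in the same test. With each treatment and number as a block, 2 pseudogenes were called, Rps19-ps6 (-1.04, edgeR adjusted p = 0.0217) and Rps2-ps10 (0.90, edgeR adjusted p = 0.0479).

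Each pseudogene was set against its parent in the same fit. In germ cells 22 of 44 had a dex log2 fold change of the same sign as that of the parent, and in soma 37 of 48. The pseudogene's value exceeded the parent's for 36 of 48 in soma, with a median excess of 0.36. The direction turned without the third dex soma library. The pseudogene's value was then above the parent's for 16 of 49 and below it for 33, with a median difference of -0.18, and 24 of 49 shared the parent's sign. Across pairs the values were not related in germ cells (Pearson's r -0.00375, n = 44) and weakly and inversely in soma (r -0.303, n = 48, and -0.203, n = 49, without the third dex soma library). These correlations are descriptions over pairs that share libraries, parents and possibly reads. The log2 ratio of pseudogene to parent within a library was also compared between dex and saline for the 19 named pairs in both cell types. The 3 dex ratios lay outside the 3 saline ratios in 5 of 38 cases (9 without the third dex soma library). Full separation of 3 against 3 libraries occurs in a share of 0.1 of all regroupings, and in a larger share with fewer libraries. The same count over all pairs was not made, so these cases are descriptions and show no dex effect on the ratio. Rps19-ps6 was lower relative to Rps19 in germ cells (-1.38) and soma (-0.64), Rpl34-ps1 relative to Rpl34 in germ cells (-0.27), while Rpl10a-ps1 in germ cells (0.33) and Rps10-ps1 in soma (0.99) were higher. With 3 against 3 libraries an exact permutation test cannot go below 0.1, so none was run.

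**Figure D4:**
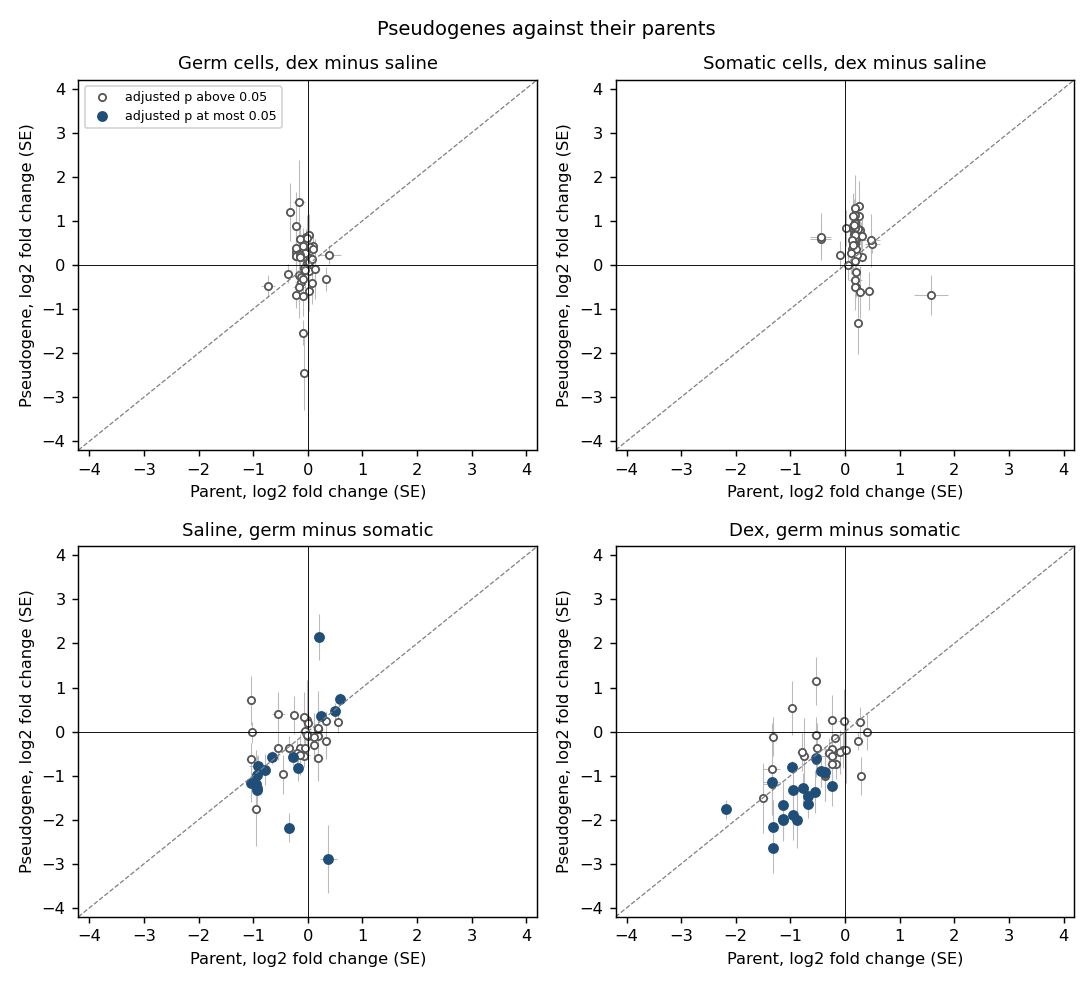
Log2 fold change of each tested pseudogene (y axis) against that of its parent (x axis) in the dex comparisons and the germ against soma comparisons, with the line of equality. Rpl7a-ps9 is omitted from the germ against soma panels because it had no somatic count. Pseudogenes lie mostly above the line in dex soma and below it in the germ against soma comparison of the dex libraries, and both positions turn without the third dex soma library, which is included here.

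Germ cells were then compared with soma among the saline libraries. Of 47 pseudogenes tested, 17 were called, 5 higher and 12 lower in germ cells (36.2%), against 86.1% of 17941 genes (43.1% higher and 42.9% lower). This was also a smaller share than in the parents, of which 36 of 53 were called (11 higher, 25 lower), and in other -ps genes (67 of 84). Most parents have far more counts and smaller standard errors, so the same difference is called less easily in a pseudogene. The other -ps genes were not matched for level either. Among the dex libraries, 20 of 49 were called (1 higher, 19 lower, 40.8%), against 84.3% of 18171 genes (42.0% higher and 42.2% lower), and 45 of 53 parents (5 higher, 40 lower). Some pseudogenes passed the low-count filter only through the cell type in which they were high, which favoured a call in that direction. They were 5 of those tested in saline, 4 of them called, and 4 of those tested after dex, all 4 called. Of the others, 13 of 42 were called in saline and 16 of 45 after dex. Of all pseudogenes called, 11 were called under both treatments, 64.7% of the saline calls and 55.0% of the dex calls, and all 11 had the same direction. The overlap over all genes was not counted, so these shares have no background and are a description. The 11 include Rpl7a-ps9, Rps2-ps6 and Rps13-ps2. In saline, after dex or in both, these passed the filter only through the cell type in which they were high, which favoured a shared direction. Without the third dex soma library the dex count was 6 higher and 11 lower of 55, against 81.6% of all genes called. The excess of lower calls was thus smaller without that library. Pseudogene and parent pointed the same way in 34 of 47 pairs in saline and 41 of 49 in dex. Where both were called, the sign was shared in 15 of 16 and in 19 of 19 pairs. Without the third dex soma library the dex values were 41 of 55 pairs and 12 of 14 where both were called. Under both treatments, the pairs with both called included pseudogenes that passed the filter only through the cell type in which they were high. As most called pseudogenes and most called parents were lower, above all after dex, a shared sign was favoured without any link within pairs. Reads shared by pseudogene and parent were not separated. The germ minus soma value of the pseudogene was below that of its parent in 33 of 49 dex pairs (median difference -0.36), but above it in 41 of 55 without that library (median difference 0.30).

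After dex, germ and soma libraries of the same number deviated together over all genes, so a fit with the number as a block was also read. With the block, 4 of the pseudogenes with large differences between libraries were called lower in germ cells. Without it they had the same direction and were not called. Rps2-ps13 differed by -1.42 (edgeR adjusted p = 5.01e-05, against -1.19 and 0.0695 without the block) and Rps2-ps10 by -0.88 (edgeR adjusted p = 0.000184, against -0.85 and 0.459). Rps26-ps1 differed by -0.67 (edgeR adjusted p = 0.0036, against -0.56 and 0.551) and Rpl17-ps5 by -0.47 (edgeR adjusted p = 0.0475, against -0.54 and 0.0831). In each of the 3 pairs of dex libraries, the soma library held more than the germ library for Rps2-ps13, Rps2-ps10 and Rps26-ps1, while for Rpl17-ps5 this held in 2 of 3. With the block, 23 of 49 pseudogenes (46.9%) were called after dex, against 82.8% of all genes in the same fit. The fit with the block was not run without the third dex soma library. In the fit without the block, the values moved widely when single libraries were left out. They ran from -2.27 to -0.64 for Rps2-ps13 and from -1.62 to -0.018 for Rps2-ps10. For Rps26-ps1 they ran from -1.08 to 0.034 and for Rpl17-ps5 from -0.77 to -0.16.

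The pseudogenes with the most soma-biased levels were named from the saline libraries, which therefore give no test for them, and were tested in the dex libraries. Rps19-ps3 (chr4:147821777-147822202), with 15 differences from Rps19 and 92.0% unique stretches, was at 0.90, 0.58 and 0.91 CPM in the saline germ libraries and 3.27, 3.22 and 4.49 CPM in saline soma. After dex it was at 1.14, 1.10 and 0.99 CPM in germ cells and 2.48, 3.55 and 3.86 CPM in soma, without overlap (log2 difference -1.63, SE 0.34, edgeR adjusted p = 0.000898). Rps19 itself differed by -0.68 (SE 0.08) in the dex libraries. Another pseudogene of the same parent, Rps19-ps6, differed by -1.46 (SE 0.20, edgeR adjusted p = 3.73e-05) after dex and by -0.38 (SE 0.29, edgeR adjusted p = 0.223) after saline. With the replicate number as a block, its saline value was -0.40 (edgeR adjusted p = 0.00727).

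Copies of Rpl9 and Rpl28 were also lower in germ cells after dex. The log2 differences were -1.66 (SE 0.53, edgeR adjusted p = 0.0124) for Rpl9-ps6, -2.01 (SE 0.43, edgeR adjusted p = 0.0011) for Rpl9-ps7 and -1.33 (SE 0.46, edgeR adjusted p = 0.0187) for Rpl28-ps1. Rps13-ps2 passed the low-count filter after dex only through the soma, so its value of -2.65 (SE 0.56) is a description. Their parents were lower as well, Rpl9 by -1.14 (SE 0.08), Rps13 by -1.33 (SE 0.08) and Rpl28 by -0.95 (SE 0.08). Without the third dex soma library the calls of Rpl9-ps6 (-0.91, edgeR adjusted p = 0.0907) and Rpl28-ps1 (-0.60, edgeR adjusted p = 0.149) were lost. They were also lost without the third dex germ library (edgeR adjusted p = 0.0595 and 0.0699), and that of Rpl28-ps1 without the second (edgeR adjusted p = 0.0591). Rpl38-ps2, with the sequence shown above, was at 2.95, 4.72 and 4.96 CPM in dex germ cells and 13.4, 13.7 and 15.46 CPM in dex soma (-1.76, SE 0.22, edgeR adjusted p = 1.83e-05), beside -2.18 (SE 0.09) for Rpl38. Rpl3-ps1 differed by -0.79 (SE 0.14, edgeR adjusted p = 0.000245) and Rpl34-ps1 by -0.60 (SE 0.09, edgeR adjusted p = 9.3e-05), and their parents by -0.97 (SE 0.09) and -0.53 (SE 0.07).

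Whether a pseudogene moved between cell types other than its parent was tested on the log2 ratio of the named pairs, 6 germ against 6 soma libraries. Of 19 named pairs, 12 had not been named from the saline difference alone. Their germ minus soma differences in this ratio ran from -0.43 to 0.51, and none passed 0.05 (two-sided exact permutation p = 0.158 to 0.903, unadjusted, 136 pairs computed, smallest possible p 0.00216). Without the third dex soma library 1 did, that of Rps10-ps2 (0.76). This test leaves out that germ and soma libraries of one number varied together. Taken as differences within the 6 pairs of the same treatment and number, in an alternative chosen after seeing the data, none passed either (two-sided exact sign-flip permutation p = 0.0625 to 0.938, BH-adjusted at least 0.625, smallest possible p 0.0313). The lowest was that of Rps19-ps6 (-0.43 ± 0.425, SD, n = 6), which was lower relative to its parent in germ cells in 5 of 6 pairs. The second saline pair was below the limit of 0.1 set for pairing (correlation 0.083). Small differences within pairs were not detectable with 6 pairs.

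Rpl7a-ps9 (chr7:81445920-81446696, plus strand) was the exception among the pseudogenes far from their parent. It is 88.4% identical to Rpl7a with no full reading frame, and each of its stretches of 100 bases was absent from other genes' transcripts. The capitals in the pair above mark its differences from Rpl7a. It had 52, 41 and 46 counts in the saline germ libraries, 51, 61 and 33 counts in the dex germ libraries, and 0 counts in all 6 soma libraries. Germ and soma did not overlap, and dex and saline germ libraries did. Against the floor of 3 counts per library, its mean in germ cells was at least 14.4-fold higher than in soma after saline, which is the contrast it was named from, and at least 17.1-fold higher after dex. It passed the low-count filter through the germ libraries alone, so no test is given for this difference.

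It lies inside the span of Cpeb1 (chr7:81347026-81455465, minus strand), which encodes a protein that binds the cytoplasmic polyadenylation element in oocyte mRNAs. Cpeb1 was at 468 ± 30.7 CPM in saline germ cells, 455 ± 13.3 in dex germ cells, 1.03 ± 0.232 in saline soma and 1.71 ± 0.707 in dex soma (SD, n = 3). Rpl7a-ps9 counts amounted to 0.435 to 0.866 per 100 Cpeb1 counts in the germ libraries. As the strand setting of the counting is not given in the sources used here, reads of the pseudogene and unspliced reads of Cpeb1 at this place cannot be told apart. Rpl7a, the parent, differed little between the cell types (log2 difference 0.06, SE 0.07, in saline and 0.12, SE 0.09, in dex).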

How the data were processed

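RNA was measured in 12 bulk poly-A libraries, 3 per group, from sorted germ and somatic cells. The authors deposited raw counts of read pairs per gene for 54532 genes (GRCm38 coordinates), made with HISAT2 2.0.5 (mm10) and featureCounts 1.5.0-p3 per the submitters' processing notes. The authors also deposited FPKM values (the counts scaled by gene length and depth), used here as an alternative scale only. Tables of the authors' own DESeq2 1.20.0 comparisons (normalized values, fold changes and p-values) were not used. The strand setting and the handling of reads that fit several places are not given in the sources used here.

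Counts were tested as deposited with edgeR 4.0.16 (R 4.3.3), quasi-likelihood, TMM scaling and the filterByExpr filter, over all genes, with Benjamini-Hochberg (BH) adjustment and a threshold of 0.05. Standard errors follow from the F statistic. Comparisons within a cell type or treatment used only those 6 libraries, and the interaction used all 12. DESeq2 1.42.0 and other settings were alternatives. Levels are CPM, the count over the TMM-scaled library total. Ratios of pseudogene to parent took a pseudocount of 0.5 counts. Depth was 14658503 to 18245507 counts per library, so 3 counts correspond to 0.169 to 0.201 CPM. Such floors cover counting error only. Nothing says more of the replicates than that they are pools, so p-values measure the spread between these pools.

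Sequences, coding frames and unique stretches came from GENCODE M21 transcripts (same strand), aligned locally with Biopython 1.88 (match 1, mismatch -1, gap opening -3, gap extension -1). Of the 136 pseudogenes, 132 aligned over at least 50% of the parent's coding sequence. The fitting script was tested on simulated counts. Members and gene lists were chosen with earlier results of these data known. Named pseudogenes were the 10 with the highest mean CPM, any called in a dex or interaction test, the 5 with the highest and the 5 called with the lowest germ minus soma log2 fold change in saline (mean CPM of at least 1), and the 5 highest per kb relative to the parent, 19 in all. Rpl38-ps2, Rpl31-ps8, Rps6-ps4 and those named in counts of 5 or fewer were added after their values were seen.

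Replicate numbers are shared by the groups in the labels. Over 10717 genes, deviations from the group means of germ and soma libraries with the same number correlated at 0.215, 0.108 and 0.227 after dex. After saline they correlated at 0.206, 0.083 and 0.175. A limit of 0.1 in every pair was met after dex, and in saline the second pair alone fell short. Saline germ and soma libraries of different numbers correlated lower, at -0.169 to 0.034. Deviations from a group mean cancel out within the group, so positive values for the same number make those for different numbers lower. The lower values therefore add no evidence of pairing. The saline libraries may still be paired, which was not settled. The main tests between cell types did not use the pairing, and fits with the number as a block are given beside them.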

Additional observations from a re-analysis of the deposited data

Results flagged for a closer look

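Rpl19-ps11, the copy of Rpl19 with the single difference G191A, had dex differences of opposite sign in the sorted fractions, neither of them called by edgeR (log2 fold change -0.28, adjusted p = 0.428, in germ cells and 0.63, adjusted p = 0.0725, in soma). All 3 dex germ libraries lay below all 3 saline germ libraries, and all 3 dex soma libraries lay above all 3 saline soma libraries. Named pseudogenes were searched for such opposite separation, so this pattern was the ground for its choice. Separation in either direction was found in 17.4% of all genes in germ cells and in 25.4% in soma. The difference of the dex effects, germ minus soma, was -0.93 on the log2 scale (SE 0.26), and it did not pass the threshold when tested as an interaction (edgeR adjusted p = 0.0924). It ranged from -1.07 to -0.62 when single libraries were left out. Its highest soma value, 22.7 CPM, was in the third dex soma library, in which 28 of 36 pseudogenes were at their highest.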

How the results depend on the processing

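The numbers of called pseudogenes moved with the settings. Each is given with the share of all genes called in the same fit. For a range, the share is that of the fit with the most calls. In germ cells dex gave 0 calls, but 2 of 21 with DESeq2 (1.31% of genes), 1 of 55 with all 12 libraries in one fit (Rps19-ps6, 0.33%), 7 of 135 without the low-count filter (1.27%) and 0 to 3 with single libraries left out, the most without the first saline library (Rpl17-ps5, Rpl34-ps1 and Rps19-ps6, 0.267%). In soma the 0 calls became 1 of 47 with DESeq2 (9.06%), 15 of 132 without the filter (6.40%) and 0 to 5 with single libraries left out, the most without the first dex library (Rpl17-ps10, Rpl19-ps11, Rpl31-ps8, Rps27a-ps2 and Rps6-ps4, 6.24%). The interaction gave 0 calls, 2 of 31 with DESeq2 (4.19%) and 6 of 136 without the filter (2.01%). With libraries left out it gave 0 to 1, the most without the first saline soma library (1.09%). Between germ cells and soma, the 17 calls in saline became 27 of 136 without the filter (54.2%). With libraries left out they became 15 to 20, the most without the first saline germ library (84.4%). The 20 calls after dex became 38 of 136 without the filter (53.2%), and 13 of the 20 were among pseudogenes overlapping no other gene (main fit, 84.3%). With libraries left out they became 16 to 31, the most without the first dex soma library (81.7%).

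With the replicate number as a block, dex gave 1 of 44 calls in germ cells (Rps2-ps10, 0.291% of genes) and 2 of 48 in soma (Rpl17-ps10 and Rpl3-ps1, 9.18%). Germ against soma gave 18 of 47 in saline (85.2%) and 23 of 49 after dex (82.8%). In saline it added Rps2-ps13 (-1.33), Rps2-ps10 (-1.76) and Rps19-ps6 (-0.40) among the named pseudogenes, and it ended no call of a named pseudogene. The labels tie dex and saline libraries by number alone. Deviations of dex and saline libraries with the same number correlated at 0.336, 0.063 and 0.122 in germ cells and at 0.180, -0.047 and 0.013 in soma. The limit of 0.1 was met by the first pair in both cell types and by the third germ pair, but not by the others. Whether a number links libraries across the treatments was not tested. A replicate block of germ and soma libraries of one treatment, chosen after seeing the data, gave 2 calls in the interaction (Rps19-ps6 and Rps2-ps10, 1.14%).

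The summed share of counts, 0.063% over the 12 libraries, was 0.0469% among pseudogenes overlapping no other gene and 0.0467% without Rpl34-ps1. The pseudogene counts per 100 parent counts, 2.05, were 2.79 with a minimum of 100 counts, 1.53 without Rpl34-ps1 and 7.51 with FPKM, a scale per length. The number of ratios of named pairs that differed between cell types was 0 to 1 with libraries left out (1 without the third dex soma library), and that of dex ratios outside the saline range was 5 to 9.

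Of 1397 values of single results under these settings, 1193 kept direction and call (or, where there was no test, moved by less than 1 SD), 70 became called, 21 lost a call, 20 moved and 93 had the other sign. Of the 93, none was called with all libraries and the usual settings, 3 had no test, and 3 were called with the other sign. These were Rpsa-ps10, germ minus soma in saline, which went from 0.26 to -2.16 without the first saline germ library and to 2.31 without the first saline soma library, Rpl17-ps5 in the same comparison, which went from -0.10 to 2.93 without the first saline soma library and to -2.85 without the first saline germ library, and Rpl10a-ps1 after dex, which went from -0.00464 to 0.88 without the third dex soma library and to -0.32 without the first. In each of the 3 the value given first after the change was the called one (edgeR). The causes were not tested.

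The other values that took the other sign with 1 library left out are given as log2 ranges over the libraries left out. For dex in germ cells they were those of Rps2-ps13 (-1.59 to 0.78), Rpl7a-ps9 (-0.067 to 0.40) and Rpl28-ps1 (-0.27 to 0.42). For dex in soma they were those of Rps2-ps13 (-0.88 to 0.26), Rps2-ps10 (-0.34 to 1.05), Rpsa-ps10 (-1.92 to 0.75), Rpl10a-ps1 (-0.019 to 1.18), Rps19-ps3 (-0.28 to 0.015), Rpl9-ps7 (-0.27 to 0.48), Rpl28-ps1 (-0.23 to 0.81) and Rps10-ps2 (-0.050 to 0.87). In the interaction they were those of Rpl3-ps1 (-0.30 to 0.0034), Rps2-ps13 (-1.26 to 1.11), Rps26-ps1 (-0.67 to 0.41), Rpsa-ps10 (-3.23 to 1.30), Rpl17-ps5 (-3.46 to 2.37), Rpl7a-ps9 (-0.065 to 0.40), Rpl10a-ps1 (-0.75 to 0.45), Rpl9-ps6 (-0.65 to 0.45), Rpl28-ps1 (-0.77 to 0.30), Rps10-ps2 (-0.63 to 0.29) and Rps10-ps1 (-0.94 to 1.02). Between germ cells and soma they were those of Rpl34-ps1 (-0.15 to 0.12) and Rps10-ps2 (-0.18 to 0.14) in saline, and of Rps26-ps1 (-1.08 to 0.034), Rpl19-ps11 (-0.37 to 0.075) and Rps10-ps2 (-0.68 to 0.23) after dex. Among the ratios to the parent they were those of Rpl34-ps1 (-0.048 to 0.055), Rps2-ps13 (-0.73 to 0.071), Rps2-ps10 (-0.94 to 0.58), Rps26-ps1 (-0.57 to 0.43), Rpsa-ps10 (-0.81 to 0.39), Rpl19-ps11 (-0.21 to 0.019), Rpl17-ps5 (-0.74 to 0.45) and Rps10-ps1 (-0.51 to 0.40). With other settings, Rpl10a-ps1 after dex took values of 0.076 with DESeq2 size factors, 0.029 without the filter, 0.22 with the replicate block and 0.078 with DESeq2. In saline, Rpl34-ps1 (0.021) was at -0.013 without the filter, Rpl17-ps5 at 0.0077 with the replicate block, and Rps10-ps2 (-0.014) at 0.023 with DESeq2 size factors and 0.018 with DESeq2. Rps10-ps1 in the interaction (-0.39) was at 0.054 with the block of germ and soma libraries of one treatment.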

Other observations

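Other genes named -ps, 259 with the same count minimum, are copies of genes of many functions. In the germ against soma comparison edgeR called 44 of 84 higher and 23 lower in saline, and 38 of 83 higher and 22 lower after dex, where the ribosomal protein pseudogenes had 5 and 12 of 47, and 1 and 19 of 49.

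Of the ribosomal protein pseudogenes with a mean under 1 CPM, Rps7-ps2 was at 0.71, 1.05 and 0.80 CPM in saline germ cells against 0.13, 0.26 and 0.18 CPM in soma (log2 difference 2.15, SE 0.53). Rpl26-ps6 was at 0, 0 and 0.46 CPM against 0.88, 1.16 and 1.64 CPM in the same groups. Neither pair of groups overlapped. Both pseudogenes were chosen after their values were seen, and each passed the low-count filter through 1 cell type alone, so no test is given.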
